A study of Mus musculus with 9 samples.

Results

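The genes described here are 34 cytosolic and mitochondrial chaperones, their cochaperones and the heat shock transcription factors, measured by RNA-Seq in Tregs sorted from mouse spleen. They were chosen by name (HSP70, HSP40, HSP60, CCT and HSP90 cochaperone genes outside the endoplasmic reticulum), and all 34 were found among the 25500 entries of the deposited expression table. KO mice were Foxp3 eGFP-Cre-ERT2 Hsp90b1 fl/fl, in which a tamoxifen-activated Cre driven from Foxp3, the transcription factor that defines Tregs, deletes Hsp90b1, the gene of the endoplasmic reticulum chaperone gp96. WT mice were Foxp3 eGFP-Cre-ERT2 Hsp90b1 WT/WT. Both genotypes were C57BL/6 mice of 8 to 12 weeks, both carried the Cre and both were given 75 mg/kg tamoxifen over 10 days, and each sample was 1000000 sorted GFP+ Tregs. There were 5 KO libraries (KO 1 to KO 5) and 4 WT libraries (WT 1 to WT 4). The sources used here do not say whether each library came from 1 mouse, so p-values measure the spread between these libraries, which may be technical in part.

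Cells outside the secretory pathway fold new and damaged proteins with a chain of ATP-driven machines. HSP70 binds exposed stretches of a client protein, J-domain proteins (HSP40) deliver clients and start ATP hydrolysis, and BAG and HSP110 proteins release the nucleotide. HSP90 with its cochaperones matures kinases and steroid receptors, the ring-shaped CCT complex folds actin and tubulin, and HSP60 with its lid HSP10 works inside mitochondria. Heat shock factor 1 (Hsf1) switches on many of these genes through heat shock elements, which are inverted repeats of the 5-base unit nGAAn.

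Levels are given as FPKM, that is, fragments for each kilobase of a gene after scaling between libraries. The reads recovered from them summed to between 11969121 and 24111821 in KO libraries and between 13742542 and 16317643 in WT libraries. Hsp90b1 measured 2.13, 2.73, 3.11, 3.09 and 1.77 FPKM in KO 1 to KO 5, against 62.9, 50.7, 44.4 and 51.5 FPKM in WT 1 to WT 4, so every library bore out its label. KO 1 and WT 1 stood apart from the other 7 libraries. On the first principal component, with 58.6% of the variance, KO 1 lay at -67.6 and WT 1 at -69.9, and the others lay between 8.88 and 26.3. Malat1, a nuclear noncoding RNA, measured 30.6 FPKM in KO 1 and 24.9 FPKM in WT 1, against 182 to 374 FPKM in the other libraries. The tests of members below are therefore given with and without KO 1 and WT 1. The 10 Treg and T cell markers, Foxp3 among them, were detected, with summed FPKM from 1543 to 2264 in KO and from 1615 to 2344 in WT libraries and none under 1 FPKM throughout. Of these 10, 1 was called lower over all 9 libraries, Il2ra, the high-affinity IL-2 receptor chain, at 44.5 ± 3.7 FPKM in KO and 114 ± 11 FPKM in WT libraries (SD, adjusted p = 0.00017). Markers of other cell types were also detected. The summed FPKM of 12 B cell markers ranged from 38.4 to 82.1 in KO and from 82.0 to 114 in WT libraries. For 9 plasma cell markers the sum ranged from 220 to 498 in KO and from 638 to 1912 in WT libraries, and for 12 myeloid and dendritic markers from 4.22 to 25.3 in KO and from 17.4 to 56.1 in WT libraries. CD8 and NK markers (9) summed to 21.7 to 61.8 FPKM in KO and 34.7 to 53.9 FPKM in WT libraries, erythroid markers (8) to 0.781 to 4.74 FPKM in KO and 0.443 to 7.37 FPKM in WT libraries, and neutrophil markers (8) to 0.725 to 3.87 FPKM in KO and 0.636 to 7.60 FPKM in WT libraries. The 6 platelet markers were higher in every KO library, at 41.3 to 50.8 FPKM in KO and 14.8 to 19.8 FPKM in WT libraries, nearly all of it from the integrin gene Itgb3, with the other 5 under 1 FPKM throughout. None of these marker lists had a gene at 0 in all libraries, and 6 B cell, 1 plasma cell, 3 myeloid and dendritic, 3 CD8 and NK, 5 erythroid and 5 neutrophil markers were under 1 FPKM throughout. Of those that passed the filter, 0 were called higher and 2 lower of 5 B cell, 1 higher and 3 lower of 8 plasma cell, none of 6 myeloid and dendritic and none of 5 CD8 and NK markers over all 9 libraries, and Itgb3 was called higher (43.3 ± 3.7 FPKM in KO and 15.5 ± 2.4 FPKM in WT libraries, SD, adjusted p = 0.00017). With KO 1 and WT 1 left out, 4 of 5 B cell, 4 of 7 plasma cell, 6 of 6 myeloid and dendritic and 3 of 4 CD8 and NK markers were called lower, and 2 plasma cell markers and Itgb3 higher. Of the 10 Treg and T cell markers, 2 were then called higher and 2 lower (Il2ra and Lck). Of all genes tested, 3.21% were called higher and 3.55% lower over all 9 libraries. Without KO 1 and WT 1 these shares were 19.5% and 17.1%. Irf4 was among the plasma cell markers called lower over all 9 libraries (8.30 ± 0.68 FPKM in KO and 15.4 ± 0.95 FPKM in WT libraries, SD, adjusted p = 0.00067). Bulk values do not tell whether its RNA came from Tregs or from other cells. The part of these markers in the results below was not tested.

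Transcripts of the inducible HSP70 genes Hspa1a and Hspa1b were scarce in KO Tregs. Both encode the cytosolic HSP70 that stressed cells make from a very low baseline. Hspa1a measured 0.015, 0, 0.020, 0.049 and 0.044 FPKM in KO 1 to KO 5, against 1.66, 0.720, 1.15 and 2.88 FPKM in WT 1 to WT 4. Hspa1b measured 0.737, 0.217, 0.403, 0.337 and 0.324 FPKM in KO 1 to KO 5, against 10.3, 4.16, 5.11 and 18.3 FPKM in WT 1 to WT 4. For both genes every KO library lay below every WT library, and WT 4 had the highest value. Of all genes tested, 5.69% were lower in KO with no overlap over the 9 libraries, and 6.1% were higher. KO 1 and WT 1 were on the same side as the rest of their groups. In bulk libraries such as these, fewer cells that express a gene and less RNA per cell cannot be told apart.

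The 2 genes lie on the minus strand of chromosome 17 (GRCm38), Hspa1a at chr17:34969190-34972156 and Hspa1b at chr17:34956436-34959238, with starts 12918 bases apart. Their promoter windows, from 250 bases before to 50 bases after the start, are printed from RefSeq (GRCm38.p6) because these are the genes with the largest difference and because the copies are nearly the same. Capitals mark the 4 of 300 bases at which the windows differ.
Hspa1a, chr17:34972107-34972406, minus strand: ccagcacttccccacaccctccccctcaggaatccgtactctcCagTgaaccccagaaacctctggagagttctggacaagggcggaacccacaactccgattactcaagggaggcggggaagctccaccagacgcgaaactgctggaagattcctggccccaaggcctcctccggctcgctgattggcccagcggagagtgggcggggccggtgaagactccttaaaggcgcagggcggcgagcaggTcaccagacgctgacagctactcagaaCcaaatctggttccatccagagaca
Hspa1b, chr17:34959189-34959488, minus strand: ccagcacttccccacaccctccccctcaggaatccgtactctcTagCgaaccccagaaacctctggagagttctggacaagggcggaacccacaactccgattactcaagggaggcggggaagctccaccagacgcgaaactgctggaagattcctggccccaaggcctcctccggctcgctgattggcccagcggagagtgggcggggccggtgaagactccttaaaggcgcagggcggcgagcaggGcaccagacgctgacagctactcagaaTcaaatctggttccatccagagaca
Each window holds a pair of facing heat shock units, GAAGATTC, 104 bases upstream of the start. The coding sequences were 99.4% identical, with 8 mismatches and 3 gapped bases. Reads that fit both copies could have been split between them or left out by the authors' counting, so the level of either copy alone is uncertain. Hspa1a also overlaps Gm20481 on the other strand, and no source used here says if the counting took account of strand.

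In reads, Hspa1a had 6 over the 5 KO libraries and 303 over the 4 WT libraries. Scaled to the libraries, the KO level was 1.52% of the WT level (exact 95% interval 0.552% to 3.34%). Hspa1b had 100 reads in KO and 1692 in WT libraries, and the KO level was 4.53% of the WT level (3.66% to 5.54%). These intervals cover counting error only, not the spread between libraries. With no read of Hspa1a in KO 2, a level of up to 0.0683 FPKM, the worth of 3 reads, is allowed there. Hspa1b fell in KO Tregs by 2.71 ± 0.36 (SE) on the log2(FPKM + 1) scale (limma, adjusted p = 0.0024 over 12312 genes), a scale that understates the change of low genes. It passed the filter of 1 FPKM in at least 4 libraries only through the WT libraries, the group in which it was higher. With no filter on low values the adjusted p was 0.0051. An exact two-sided permutation test over the 9 libraries gave p = 0.0159 for each of the 2 genes, the smallest that 5 against 4 libraries allow. This value follows from the lack of overlap given above and adds no support to it. Hspa1a did not pass this filter. With no filter its difference on the log2(FPKM + 1) scale was -1.28 ± 0.20 (SE, adjusted p = 0.0120). In limma-voom on recovered reads its log2 difference was -5.54 ± 0.84 (SE, adjusted p = 0.0040), and there too it met the minimum of 10 reads in at least 4 libraries only through WT. Without KO 1 and WT 1, Hspa1b did not pass the filter either, and in limma-voom on the reads of the other 7 libraries its log2 difference was -4.50 ± 1.12 (SE, adjusted p = 0.0090). With any single WT library left out, Hspa1b was likewise below the filter and had no limma value on FPKM.

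**Figure D1:**
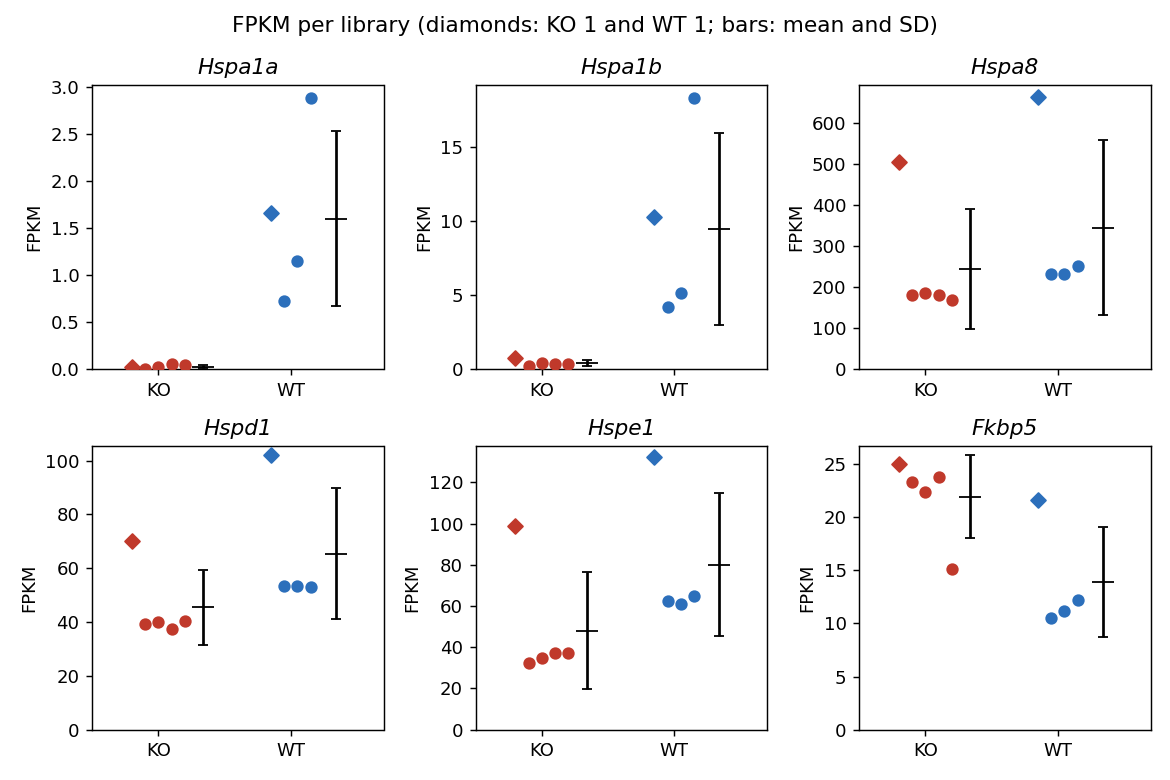
FPKM of 6 members in each library, with KO on the left and WT on the right of each panel. Diamonds are KO 1 and WT 1, circles the other libraries, and the bar is the mean with its SD (n = 5 KO and 4 WT). The KO points of Hspa1a and Hspa1b all lay under the WT points, while in Hspa8, Hspd1 and Hspe1 the diamonds lay above the circles of both groups.

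Of the 33 members that passed the filter, 0 were called higher and 1 lower (Hspa1b) in KO Tregs over all 9 libraries at an adjusted p under 0.05, the one call being a gene that reached the test through its WT values. In the same fit, 3.21% of all 12312 genes tested were called higher and 3.55% lower. At an unadjusted p under 0.05 there were 2 (Hspa1b and Fkbp5), and limma-voom on reads called 0 higher and 2 lower (Hspa1a and Hspa1b) of 32, with 2.95% of all genes higher and 4.34% lower. Among these 33, the libraries of the groups did not overlap for 0 members higher and 1 lower in KO over all 9 libraries (6.1% and 5.69% of all genes tested), and for 4 higher and 16 lower once KO 1 and WT 1 were left out (23.5% and 21.1%). Hspa1a, below the filter, was 1 further member lower with no overlap in both cases. The members' log2 differences were negative in 26 of 33 (78.8%), against 47.3% of all genes, with a median of -0.17 against 0.02 for all genes. Without KO 1 and WT 1, 2 members were called higher and 12 lower of 32 tested, while 19.5% of all genes were called higher and 17.1% lower. With all 9 libraries and a term for KO 1 and WT 1, 5 were called higher and 15 lower of 33 (19.3% and 17.0% of all genes); this fit added Bag1, Dnajb6 and Ptges3 to the higher ones and Ahsa1, Chordc1 and Hspa1b to the lower ones. The fit with the replicate number as a block, which lacks KO 5, called 3 higher and 13 lower of 33 (15.0% and 13.2% of all genes). No label says what libraries of the same number share, and beyond number 1 their correlations did not single out these pairs. The block reuses libraries of the other fits and is not a separate check. In limma-voom on the reads of the 7 libraries without KO 1 and WT 1, 2 were called higher and 15 lower of 31 (19.3% and 19.8% of all genes). Beside the FPKM fit of the same libraries, the lower ones gained Ahsa1, Chordc1, Hsf2 and Hspa1b. A term for KO 1 and WT 1 in limma-voom gave 5 higher and 16 lower of 32 (19.4% and 19.0% of all genes), and scaling the reads to their totals gave 1 higher and 2 lower of 32 (3.44% and 4.42% of all genes). The comparison of KO 2 to KO 5 with WT 1 to WT 4, the number of mice given in the study, called 0 higher and 2 lower (Hspa1b and Hspe1), with 6.58% of all genes higher and 6.68% lower. The counts thus depended on how KO 1 and WT 1 were treated.

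**Figure D2:**
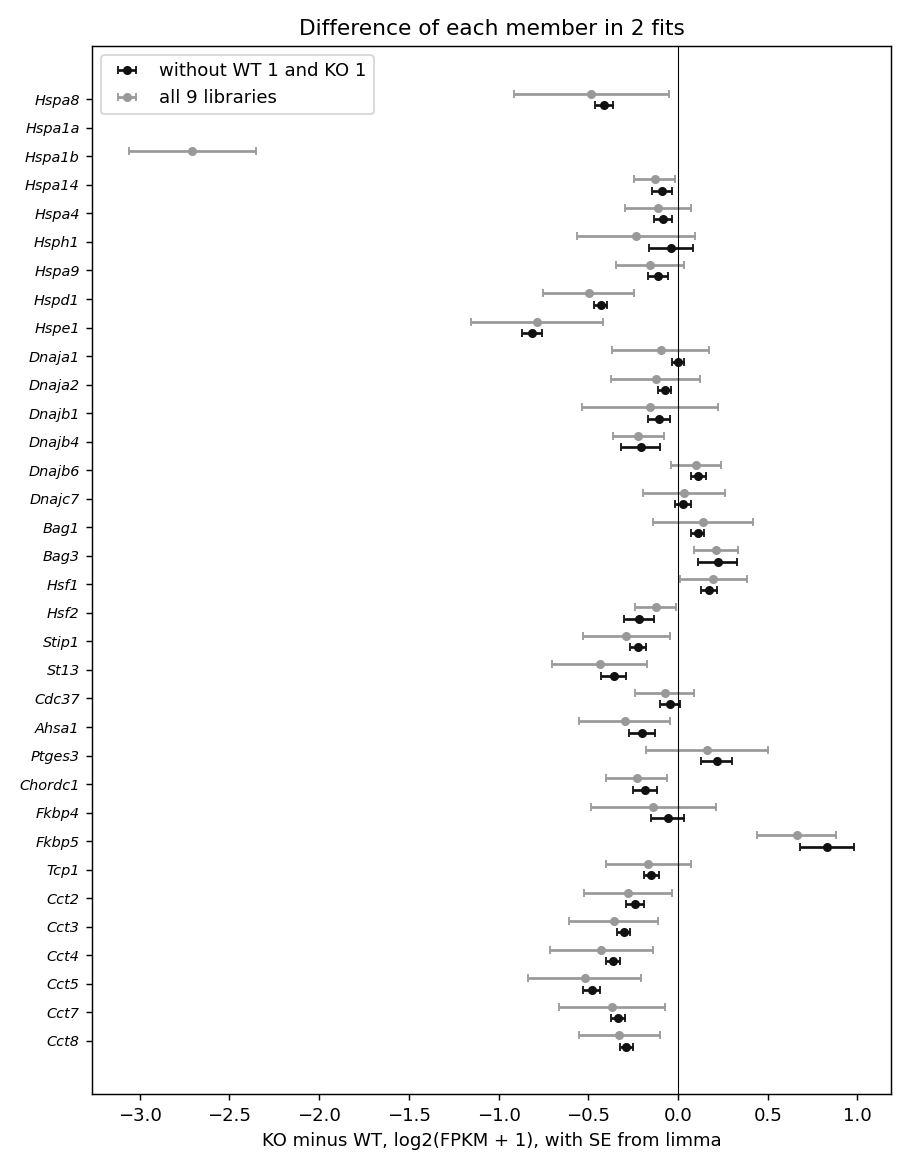
Difference between KO and WT for each member on the log2(FPKM + 1) scale, with its SE from limma. Grey points are from all 9 libraries and black points from the 7 libraries without KO 1 and WT 1. Most points lie left of 0 in both fits, the black bars are shorter, and members below the filter have no point.

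Hspa8 encodes the constitutive HSP70 and was the most abundant member. It measured 505, 179, 184, 182 and 168 FPKM in KO 1 to KO 5, against 666, 231, 231 and 251 FPKM in WT 1 to WT 4. KO 1 was above all WT libraries but WT 1, so the groups overlapped over 9 libraries and did not overlap over the other 7. Over all 9 libraries the log2 difference was -0.48 ± 0.43 (SE, adjusted p = 0.70), and it was -0.78 with KO 1 alone left out and -0.11 with WT 1 alone left out (adjusted p = 0.15 and 0.94). Without KO 1 and WT 1, Hspa8 fell by 0.41 ± 0.05 (adjusted p = 0.000707), and with the replicate block by 0.39 ± 0.05 (adjusted p = 0.00379). KO 1 held 75.9% of the level of WT 1, and KO 2 to KO 5 averaged 75% of WT 2 to WT 4. Of the FPKM of Hspa8, Hspa1a and Hspa1b together, Hspa8 made up 99.8% to 99.9% in KO and 92.2% to 98.2% in WT libraries.

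The other members of this family did not pass the test with or without KO 1 and WT 1. Hspa4 and Hsph1 encode HSP110 proteins, which act as nucleotide exchange factors, and Hspa14 encodes a ribosome-bound HSP70. Hspa4 ranged from 28.6 to 47.0 FPKM in KO (median 31.9) and from 30.9 to 49.8 FPKM in WT libraries (median 33.4). For Hsph1 the ranges were 6.05 to 13.9 FPKM in KO and 7.48 to 22.9 FPKM in WT libraries, and for Hspa14 they were 11.7 to 15.3 FPKM in KO and 13.0 to 17.8 FPKM in WT libraries.

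Inside mitochondria, HSP60 (Hspd1) forms a folding chamber and HSP10 (Hspe1) closes it. Hspd1 measured 70.0, 39.3, 39.8, 37.4 and 40.6 FPKM in KO 1 to KO 5, against 102, 53.3, 53.3 and 53.2 FPKM in WT 1 to WT 4. Hspe1 measured 98.8, 32.3, 34.8, 37.2 and 37.2 FPKM in KO 1 to KO 5, against 132, 62.6, 60.7 and 65.0 FPKM in WT 1 to WT 4. In both genes KO 1 lay above WT 2 to WT 4 and below WT 1, and the other 4 KO libraries lay below every WT library. Over all 9 libraries neither passed the test (Hspd1 -0.50 ± 0.25, adjusted p = 0.37; Hspe1 -0.79 ± 0.37, adjusted p = 0.31). Both fell without KO 1 and WT 1, Hspd1 by 0.43 ± 0.04 (adjusted p = 0.000138) and Hspe1 by 0.81 ± 0.06 (adjusted p = 6.17e-05). The replicate block called them as well, with adjusted p = 0.00184 for Hspd1 and 0.00425 for Hspe1. Leaving out KO 1 alone gave a call for Hspe1 (-1.08 ± 0.24, adjusted p = 0.0243), with WT 1 then the highest library of all. The ratio of Hspe1 to Hspd1 averaged 1.00 ± 0.24 in KO and 1.21 ± 0.07 in WT libraries (SD, n = 5 and 4, exact permutation p = 0.143). KO 1, at 1.41, was the highest library and alone made the groups overlap. Without KO 1 and WT 1 the ratio was 0.902 ± 0.073 in KO and 1.18 ± 0.04 in WT libraries (SD, n = 4 and 3, exact permutation p = 0.0571, the smallest that 4 against 3 libraries allow). KO was below WT in 3 of the 4 same-numbered pairs (exact paired permutation p = 0.25).

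Hspd1 and Hspe1 are transcribed away from each other on chromosome 1, and their annotated genes overlap, Hspd1 on the minus strand at chr1:55077835-55088243 and Hspe1 on the plus strand at chr1:55088132-55091307. The RefSeq window of Hspe1 is printed because it lies in the region that the pair share. Capitals mark a run of facing heat shock units 89 bases upstream of the Hspe1 start.
Hspe1, chr1:55087898-55088197, plus strand: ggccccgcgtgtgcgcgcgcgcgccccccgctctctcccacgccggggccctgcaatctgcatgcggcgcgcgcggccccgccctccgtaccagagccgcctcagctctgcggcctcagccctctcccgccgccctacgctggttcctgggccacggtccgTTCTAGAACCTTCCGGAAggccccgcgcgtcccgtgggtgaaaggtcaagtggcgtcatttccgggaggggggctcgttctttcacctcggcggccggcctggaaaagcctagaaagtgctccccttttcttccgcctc
Promoter windows of 300 bases were found for 29 of the 34 members. Hspa8, Hspa9, Hsf1, St13 and Cct4 had no entry. A run of 3 alternating units (TTC and GAA in turn, starting with either, with 2 bases of any kind between neighbours, searched on both strands) was present in 5 of the 29 (17.2%), namely Hspd1, Hspe1, Hsph1, Chordc1 and Dnajb6, and in 179 of 27025 genes (0.662%). A pair of units (TTC and GAA in either order with the same spacing, which is part of the longer run) was present in 14 of the 29 (48.3%) and in 17.0% of all genes. The windows of Hspd1 and Hspe1 overlap, and their runs are the same bases read on opposite strands. The same stretch is therefore counted for both genes. A match is a string of letters, not a binding site. Of the 5 with the longer run, the FPKM fit without KO 1 and WT 1 called Hspd1 and Hspe1 lower and did not call Hsph1, Chordc1 or Dnajb6. Limma-voom on the reads of the same libraries called Chordc1 lower as well.

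Hspa9 encodes mortalin, the mitochondrial HSP70. It ranged from 32.7 to 53.2 FPKM in KO (median 35.4) and from 37.1 to 59.9 FPKM in WT libraries (median 38.4). It did not pass the test over all 9 libraries (adjusted p = 0.80) or without KO 1 and WT 1 (adjusted p = 0.15), and was called lower only with the replicate block (adjusted p = 0.045).

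All 7 CCT subunit genes among the members had lower averages in KO Tregs. The subunit gene Cct6a was not among the members. Cct5 showed the largest difference of the 7, at 117, 51.5, 52.0, 55.4 and 53.0 FPKM in KO 1 to KO 5, against 156, 78.1, 75.5 and 69.5 FPKM in WT 1 to WT 4. Cct2, the most abundant, measured 153, 81.5, 87.4, 83.9 and 91.3 FPKM in KO 1 to KO 5, against 179, 106, 100.3 and 98.7 FPKM in WT 1 to WT 4. In all 7 subunits KO 2 to KO 5 lay below every WT library, and KO 1 lay between WT 1 and the other WT libraries. Without KO 1 and WT 1, 21.1% of all genes tested were lower in KO with no overlap.

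Cct4 measured 76.3, 37.7, 39.5, 37.5 and 40.0 FPKM in KO 1 to KO 5, against 103, 52.2, 48.7 and 49.3 FPKM in WT 1 to WT 4. Cct8 measured 89.4, 52.0, 52.2, 52.5 and 54.3 FPKM in KO 1 to KO 5, against 110.1, 67.7, 63.6 and 62.5 FPKM in WT 1 to WT 4. Both repeated the order seen for Cct5 and Cct2. Cct7 measured 47.9, 21.5, 21.9, 22.4 and 23.1 FPKM in KO 1 to KO 5, against 57.3, 29.0, 28.5 and 27.4 FPKM in WT 1 to WT 4. Cct3 measured 37.6, 21.3, 21.1, 20.7 and 19.8 FPKM in KO 1 to KO 5, against 48.6, 25.2, 26.7 and 25.6 FPKM in WT 1 to WT 4. These were the lowest of the 7 by FPKM together with Tcp1, which encodes the subunit CCT1. Tcp1 measured 47.3, 24.4, 26.6, 25.3 and 26.5 FPKM in KO 1 to KO 5, against 48.8, 29.5, 28.2 and 28.2 FPKM in WT 1 to WT 4, the smallest difference of the 7.

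Over all 9 libraries none of the 7 passed the test, with log2 differences between -0.52 ± 0.32 (Cct5, adjusted p = 0.49) and -0.17 ± 0.24 (Tcp1, adjusted p = 0.84). All 7 fell without KO 1 and WT 1, by 0.48 ± 0.05 for Cct5 (adjusted p = 0.000325), 0.36 ± 0.04 for Cct4 (0.000493), 0.34 ± 0.04 for Cct7 (0.000561), 0.30 ± 0.04 for Cct3 (0.00094), 0.29 ± 0.04 for Cct8 (0.00106), 0.24 ± 0.05 for Cct2 (0.00755) and 0.15 ± 0.04 for Tcp1 (0.0273). Of all genes tested, 17.1% were called lower in that fit. The replicate block called 6 of the 7, without Tcp1 (adjusted p = 0.104), and 13.2% of all genes lower. KO 2 to KO 5 averaged from 71.2% (Cct5) to 89.9% (Tcp1) of WT 2 to WT 4, and KO 1 stood at 74.3% (Cct4) to 96.8% (Tcp1) of WT 1. The CCT ring holds its subunits in equal number. In FPKM, the highest of these 7 exceeded the lowest 3.83- to 4.60-fold in KO and 3.68- to 4.23-fold in WT libraries. These folds depend on the gene lengths used, from 2557 bases for Cct2 to 6778 bases for Cct7. In reads the 7 ran from 1820 (Tcp1) to 3084 (Cct2) in KO 2 and from 2428 (Tcp1) to 4457 (Cct2) in WT 2. Unequal transcript numbers thus cannot be read from the FPKM. The summed FPKM of the 7 was 353 ± 121 in KO and 456 ± 165 in WT libraries (SD, n = 5 and 4, exact permutation p = 0.349). It was 299 ± 8 in KO and 374 ± 14 in WT libraries without KO 1 and WT 1 (SD, n = 4 and 3), where the groups did not overlap and the exact permutation p was 0.0571, again the smallest possible. In the 4 same-numbered pairs KO was below WT in 4 (exact paired permutation p = 0.125, the smallest that 4 pairs allow).

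**Figure D3:**
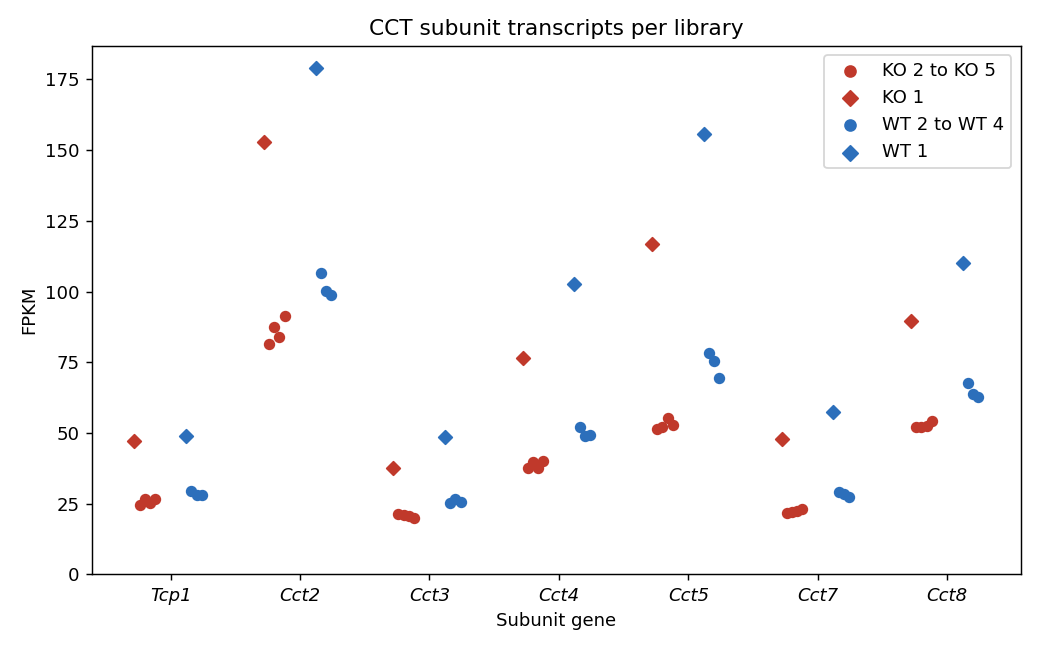
FPKM of the 7 CCT subunit genes among the members in each library, KO in red on the left and WT in blue on the right of each gene. Diamonds are KO 1 and WT 1. In each gene the KO circles lay below the WT circles, and both diamonds lay above all circles.

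Fkbp5 had the largest positive difference of the members tested. It encodes FKBP51, an HSP90 cochaperone that restrains the glucocorticoid receptor and is itself induced by it. It measured 25.0, 23.3, 22.4, 23.8 and 15.1 FPKM in KO 1 to KO 5, against 21.6, 10.5, 11.2 and 12.2 FPKM in WT 1 to WT 4. KO 5 was the lowest KO library and WT 1 the highest WT library, and the groups overlapped only through this pair. Over all 9 libraries the log2 difference was 0.66 ± 0.22 (adjusted p = 0.14, exact permutation p = 0.0317). Without KO 1 and WT 1, Fkbp5 rose by 0.83 ± 0.15 (adjusted p = 0.00506), and with the replicate block by 0.78 ± 0.15 (adjusted p = 0.0159). Leaving out WT 1 alone also gave a call, at 0.88 ± 0.16 (adjusted p = 0.0179).

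Of the other HSP90 cochaperones, Stip1 and St13 were called lower without KO 1 and WT 1. Stip1 (HOP) joins HSP70 to HSP90 and measured 68.7, 40.3, 40.4, 40.2 and 38.1 FPKM in KO 1 to KO 5, against 86.6, 45.1, 45.1 and 49.6 FPKM in WT 1 to WT 4. St13 (HIP), which slows the release of nucleotide from HSP70, measured 18.9, 10.3, 10.6, 10.7 and 8.87 FPKM in KO 1 to KO 5, against 27.3, 12.9, 12.8 and 14.0 FPKM in WT 1 to WT 4. Again KO 1 lay between WT 1 and the other WT libraries. Neither passed over all 9 libraries (adjusted p = 0.68 for Stip1 and 0.50 for St13). With KO 1 and WT 1 left out, Stip1 fell by 0.22 ± 0.04 (adjusted p = 0.00711) and St13 by 0.36 ± 0.07 (adjusted p = 0.00662), and the replicate block gave adjusted p = 0.0211 for Stip1 and 0.010 for St13.

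Among the rest, Ahsa1 stimulates the HSP90 ATPase, Cdc37 brings kinases to HSP90, Ptges3 (p23) holds its closed state, Fkbp4 (FKBP52) serves steroid receptors and Chordc1 encodes a further HSP90-binding protein. Ahsa1 ranged from 11.3 to 22.3 FPKM in KO and from 14.6 to 30.7 FPKM in WT libraries, and Chordc1 from 9.67 to 15.9 FPKM in KO and from 11.9 to 19.3 FPKM in WT libraries. Neither was called in limma on FPKM over all 9 libraries or without KO 1 and WT 1. The term for KO 1 and WT 1 gave calls lower for both (adjusted p = 0.0225 for Ahsa1 and 0.0228 for Chordc1). So did limma-voom on reads without these libraries (adjusted p = 0.0403 and 0.0311). Cdc37 ranged from 26.7 to 41.2 FPKM in KO and from 28.7 to 43.1 FPKM in WT libraries, and Fkbp4 from 25.1 to 68.5 FPKM in KO and from 30.8 to 76.0 FPKM in WT libraries. Ptges3 ranged from 37.2 to 101 FPKM in KO and from 35.8 to 85.3 FPKM in WT libraries. It was called higher with the replicate block (0.28 ± 0.05, adjusted p = 0.0111) and with the term for KO 1 and WT 1 (0.22 ± 0.07, adjusted p = 0.0399) but not over all 9 libraries (adjusted p = 0.90) or without KO 1 and WT 1 (adjusted p = 0.085).

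Hsf1, the main activator of heat shock genes, had a higher average in KO Tregs. It measured 7.09, 12.1, 11.8, 11.2 and 11.2 FPKM in KO 1 to KO 5, against 6.33, 10.4, 9.74 and 10.3 FPKM in WT 1 to WT 4. Here KO 1 and WT 1 were the lowest of their groups. The log2 difference was 0.20 ± 0.19 over all 9 libraries (adjusted p = 0.72), and without KO 1 and WT 1 Hsf1 rose by 0.17 ± 0.05 (adjusted p = 0.0231), with the replicate block by 0.18 ± 0.05 (adjusted p = 0.0481). Hsf2, a related factor, ranged from 1.60 to 1.78 FPKM in KO and from 1.43 to 2.33 FPKM in WT libraries and did not pass in these fits. In limma-voom on reads without KO 1 and WT 1, Hsf2 was called lower (-0.32 ± 0.10, SE, adjusted p = 0.0256).

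None of the 6 J-domain genes passed the test over all 9 libraries, without KO 1 and WT 1 or with the replicate block. Dnaja1, Dnaja2, Dnajb1 and Dnajb4 encode HSP40 partners of HSP70, Dnajb6 suppresses aggregation, and Dnajc7 binds both HSP70 and HSP90. Dnajb1, a classical heat shock gene, ranged from 21.6 to 60.2 FPKM in KO (median 23.5) and from 23.1 to 62.1 FPKM in WT libraries (median 25.4). Dnaja1 averaged 21.5 FPKM in KO 2 to KO 5 and 21.5 FPKM in WT 2 to WT 4. Dnaja2 ranged from 39.1 to 72.4 FPKM in KO and from 41.1 to 78.2 FPKM in WT libraries, Dnajb6 from 15.8 to 22.7 FPKM in KO and from 14.7 to 20.4 FPKM in WT libraries, and Dnajc7 from 25.0 to 47.1 FPKM in KO and from 27.0 to 46.7 FPKM in WT libraries. Dnajb4 was scarce, at 0.946 to 1.72 FPKM in KO and 1.29 to 2.11 FPKM in WT libraries. The BAG-domain genes Bag1 and Bag3, whose products release nucleotide from HSP70, did not pass in those 3 fits either. Bag1 ranged from 53.5 to 120 FPKM in KO and from 49.1 to 87.5 FPKM in WT libraries, and Bag3 from 6.85 to 9.67 FPKM in KO and from 6.07 to 7.86 FPKM in WT libraries.

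Most members were high in KO 1 and WT 1. KO 1 was above KO 2 to KO 5 in 29 of 34 members and below them in 2, with a median fold of 1.77. WT 1 was above WT 2 to WT 4 in 29 and below them in 3, with a median fold of 1.80. Over all genes the median folds were 1.08 for KO 1 and 1.06 for WT 1, and 48.8% and 49.1% of genes were above the other libraries. Hspa8 moved most among the members of KO 1, at 2.83-fold, and stood at 2.80-fold in WT 1. Dnajc7 and Hsf1 were below the rest in both libraries and Hsf2 in WT 1. The difference between genotypes had the same sign inside this pair of libraries as outside it for 31 members: 25 were lower in KO 1 than in WT 1 and also lower on average in KO 2 to KO 5 than in WT 2 to WT 4, and 6 were higher in both. The sign differed for 3. The share of all genes with the same sign was not counted, so whether the members exceed it is not known. No replicate check is possible within the pair.

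**Figure D4:**
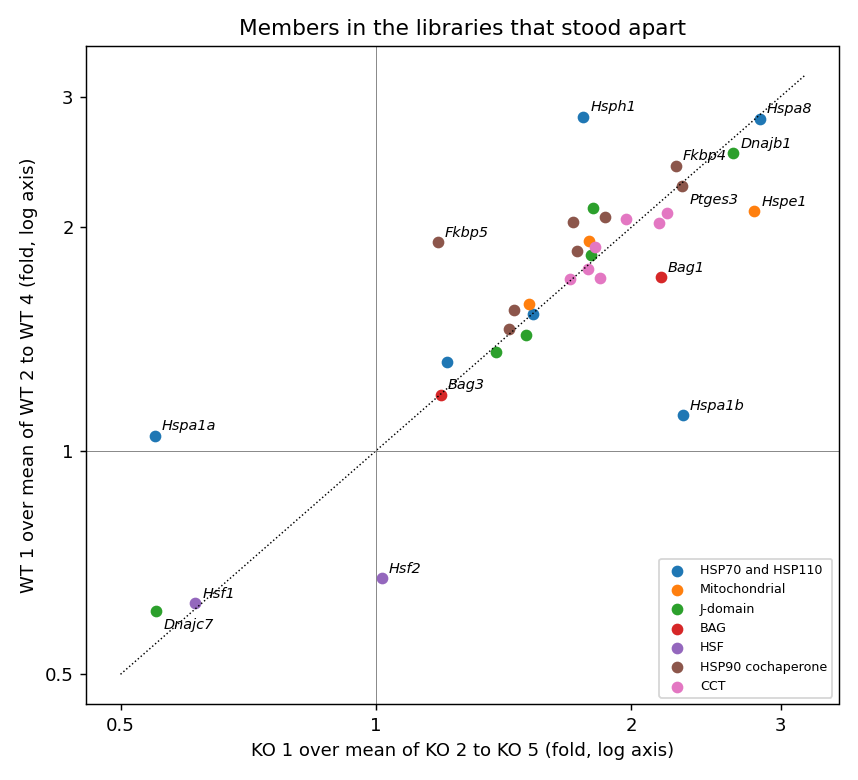
Each point is a member, coloured by role. The x axis is its FPKM in KO 1 over the mean of KO 2 to KO 5 and the y axis its FPKM in WT 1 over the mean of WT 2 to WT 4, both as folds on log axes. The dotted line marks equal folds. Most points lie above 1 on both axes, and Dnajc7 and Hsf1 lie below 1 on both.

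Genes of the same pathways outside the 34 were counted in the same fits, with lists that were likewise chosen with earlier results known. Their counts stand beside 3.21% of all genes called higher and 3.55% lower over all 9 libraries, 19.5% and 17.1% without KO 1 and WT 1, and 15.0% and 13.2% with the replicate block. Of 25 other cytosolic and mitochondrial HSP70, HSP90 and J proteins tested, 1 was called higher and 0 lower over all 9 libraries, and 6 higher and 5 lower without KO 1 and WT 1. The one called was Dnajb2, a J protein, at 8.26 ± 1.24 FPKM in KO and 4.89 ± 0.36 FPKM in WT libraries (SD, adjusted p = 0.011), and next came Dnaja4, at 7.56 ± 0.92 FPKM in KO and 5.47 ± 1.01 FPKM in WT libraries (adjusted p = 0.10 over all 9 libraries, 0.00512 without KO 1 and WT 1 and 0.0204 with the replicate block). The cytosolic HSP90 genes are in this list and were picked out after their values were seen. Hsp90ab1 measured 621, 290.2, 298, 298 and 300.4 FPKM in KO 1 to KO 5, against 833, 434, 449 and 460.1 FPKM in WT 1 to WT 4, and Hsp90aa1 averaged 74.2% of WT 2 to WT 4 in KO 2 to KO 5. Neither passed over all 9 libraries (adjusted p = 0.36 for Hsp90ab1 and 0.43 for Hsp90aa1). Once KO 1 and WT 1 were left out, Hsp90ab1 fell by 0.59 ± 0.04 (adjusted p = 4.73e-05) and Hsp90aa1 by 0.42 ± 0.03 (adjusted p = 0.000118).

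Of 18 other HSP90 cochaperones tested, 1 was called higher and 0 lower over all 9 libraries, and 1 higher and 3 lower without KO 1 and WT 1. Unc45a, a myosin chaperone, averaged 23.8 ± 1.5 FPKM in KO and 17.9 ± 1.4 FPKM in WT libraries (SD, adjusted p = 0.028), and Fnip1 averaged 5.65 ± 0.61 FPKM in KO and 7.25 ± 0.58 FPKM in WT libraries (adjusted p = 0.097, 0.0135 without KO 1 and WT 1 and 0.0161 with the replicate block). Of 17 prefoldin and CCT partner genes, none was called over all 9 libraries. Without KO 1 and WT 1, 0 were higher and 3 lower, among them the tubulin cofactor Tbca (-0.47, adjusted p = 0.000247) and the prefoldin subunit Pfdn1 (-0.52, adjusted p = 0.00524). Tbca averaged 60.1 ± 30.7 FPKM in KO and 80.9 ± 32.9 FPKM in WT libraries, and Pfdn1 18.7 ± 8.8 FPKM in KO and 25.5 ± 7.9 FPKM in WT libraries. Of 15 mitochondrial import and protease genes, none was called over all 9 libraries, and 1 was higher (Spg7, 0.16, adjusted p = 0.0282) and 4 lower (among them Clpb, -0.27, adjusted p = 0.0216) without KO 1 and WT 1. Spg7 averaged 17.55 ± 0.9 FPKM in KO and 15.6 ± 0.7 FPKM in WT libraries, and Clpb 1.85 ± 0.21 FPKM in KO and 2.34 ± 0.11 FPKM in WT libraries. Of 6 other nucleotide exchange factors tested, none was called in either fit. The smallest p there were those of Hspbp1, at 19.6 ± 6.7 FPKM in KO and 22.2 ± 7.5 FPKM in WT libraries, and Bag6, at 43.2 ± 2.3 FPKM in KO and 41.6 ± 1.6 FPKM in WT libraries (SD, adjusted p = 0.84 and 0.85). Among 11 genes listed as small heat shock or other HSF1-induced genes, a listing not tested here, none was called over all 9 libraries. Without KO 1 and WT 1, 2 were higher and 4 lower. Hspb11 then differed by -0.75 (adjusted p = 0.00659) and Hspb6 by 0.58 (adjusted p = 0.0119). Hspb11 averaged 1.59 ± 0.53 FPKM in KO and 3.54 ± 1.17 FPKM in WT libraries, and Hspb6 2.36 ± 0.55 FPKM in KO and 1.30 ± 0.33 FPKM in WT libraries (SD, adjusted p = 0.052 and 0.086 over all 9 libraries).

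Of 20 endoplasmic reticulum chaperones, 1 was called lower over all 9 libraries, the deleted Hsp90b1, and 0 higher, while 6 were higher and 2 lower without KO 1 and WT 1 and 8 higher and 1 lower with the replicate block. Dnajb9, second by p, averaged 15.9 ± 4.8 FPKM in KO and 10.8 ± 2.4 FPKM in WT libraries (SD, adjusted p = 0.27, 0.0907 without KO 1 and WT 1 and 0.0462 with the replicate block). Of 12 glucocorticoid-induced genes tested, 1 was called higher and 0 lower over all 9 libraries, 2 higher and 3 lower without KO 1 and WT 1, and 1 higher and 3 lower with the replicate block. The one called over all 9 was the kinase gene Sgk1, at 9.76 ± 2.26 FPKM in KO and 4.52 ± 0.90 FPKM in WT libraries (adjusted p = 0.011), while the decoy receptor gene Il1r2 averaged 4.91 ± 1.41 FPKM in KO and 7.91 ± 1.53 FPKM in WT libraries (adjusted p = 0.089, 0.0024 without KO 1 and WT 1 and 0.00843 with the replicate block). Of 15 immediate early and dissociation genes, which rise when tissue is handled, 6 were called higher and 2 lower over all 9 libraries and 9 higher and 2 lower without KO 1 and WT 1, and their summed FPKM ranged from 1677 to 2528 in KO and from 811 to 1364 in WT libraries. Klf6 averaged 102 ± 22 FPKM in KO and 43.6 ± 13.0 FPKM in WT libraries (adjusted p = 0.0097), and Egr2 4.92 ± 1.36 FPKM in KO and 14.9 ± 2.5 FPKM in WT libraries (adjusted p = 0.0015). The part of this list in the differences of the heat shock genes was not tested.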

How the data were processed

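Tregs from 5 KO and 4 WT samples were profiled by RNA-Seq from strand-specific paired-end libraries. Per the submitters' processing notes, CASAVA and fastp handled the reads and mm10 was the genome. The sources used here name no aligner, counting tool, annotation or use of strand. The authors deposited FPKM, reads per gene divided by gene length and by a constant per library. Median-ratio factors of these FPKM were 1.006 in all 9 libraries, so they already carry such a scaling.

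Differences in log2(FPKM + 1) were tested with limma-trend (limma 3.58.1, R 4.3.3). Genes had to exceed 1 FPKM in 4 or more libraries. Calls used Benjamini-Hochberg adjustment over all genes tested and a threshold of adjusted p under 0.05. Single values were tested with exact permutation tests. Whole reads were recovered with gene lengths of GENCODE M21 (24368 of 25500 entries, 95.6%, within 0.01 read) and tested with limma-voom at a minimum of 10 reads. Hspa9 and Stip1 did not come out whole and have no value there. Library totals are in the report. The reads behind a given FPKM depend on gene length, so short genes near 1 FPKM rest on fewer reads than long ones. Dnajb4, with 8765 exon bases, had 114 to 328 reads in each KO library. Scripts were tested on simulated data.

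The study gives 4 mice per genotype. Its Supplemental Methods and analysis code were not used here, and the sources used name neither the test nor a reason for leaving out a KO library, so all 9 were used. Alternatives were KO 2 to KO 5 against WT 1 to WT 4, leaving out KO 1 and WT 1 or giving them a term, leaving out each library, a replicate block, other pseudocounts, filters and scalings, and the recovered reads. Deviations from the group means of libraries with the same number correlated at 0.867, 0.425, 0.316 and 0.469 for numbers 1 to 4. The numbers were taken to pair the samples because every pair exceeded 0.1, though no label says what they share. This rule does not justify the pairing. The group means include KO 1 and WT 1, whose shift puts the other libraries on the opposite side together. KO 5, which has no partner, correlated at 0.34, 0.384 and 0.172 with WT 2, WT 3 and WT 4. Libraries 2 to 4 with different numbers correlated as much, at 0.351 to 0.57, so beyond number 1 the correlations do not single out these pairs.

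The members and lists were chosen with earlier results of these data known. Full values are given for members called over all 9 libraries or without KO 1 and WT 1, and means for the 2 genes with the smallest p over all 9 libraries in each pathway list. Hspa1a was added to these after its values were seen. Promoters were taken from RefSeq (GRCm38.p6) by symbol. Python 3.11.15, numpy 2.4.6, pandas 2.3.3, scipy 1.17.1 and matplotlib 3.10.9 were used.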

Additional observations from a re-analysis of the deposited data

Results flagged for a closer look

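The gap between the outermost library and its neighbour exceeded Dixon's 95% critical value, set for groups of 5 KO and 4 WT libraries, in many members. Chance flags about 1 group in 20, and the members are not independent of each other. KO 1 was high in 23 members, at these FPKM: Hspa8 (505), Hspa4 (47.0), Hspa9 (53.2), Hspd1 (70.0), Hspe1 (98.8), Dnaja1 (38.8), Dnaja2 (72.4), Dnajb1 (60.2), Dnajb6 (22.7), Bag1 (119.6), Stip1 (68.7), St13 (18.9), Ahsa1 (22.3), Ptges3 (101), Chordc1 (15.9), Fkbp4 (68.5), Tcp1 (47.3), Cct2 (153), Cct3 (37.6), Cct4 (76.3), Cct5 (117), Cct7 (47.9), Cct8 (89.4). KO 1 was low in 2, Dnajc7 (25.0), Hsf1 (7.09), and KO 5 was low in 1, Fkbp5 (15.1). WT 1 was high in 26 members, at these FPKM: Hspa8 (666), Hspa4 (49.8), Hsph1 (22.9), Hspa9 (59.9), Hspd1 (102), Hspe1 (132), Dnaja1 (45.6), Dnaja2 (78.2), Dnajb1 (62.1), Dnajb6 (20.4), Bag1 (87.5), Stip1 (86.6), St13 (27.3), Cdc37 (43.1), Ahsa1 (30.7), Ptges3 (85.3), Chordc1 (19.3), Fkbp4 (76.0), Fkbp5 (21.6), Tcp1 (48.8), Cct2 (179), Cct3 (48.6), Cct4 (103), Cct5 (156), Cct7 (57.3), Cct8 (110.1). WT 1 was low in 1, Hsf1 (6.33). No library was set apart in Hspa1a, Hspa1b, Hspa14, Dnajb4, Bag3 or Hsf2. The recovered reads of KO 1 and WT 1 summed to 24111821 and 16317643.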

How the results depend on the processing

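Counts of members depended on the treatment of KO 1 and WT 1. Over all 9 libraries 0 were called higher and 1 lower. The counts higher and lower were 2 and 12 without KO 1 and WT 1, 5 and 15 with a term for them, 3 and 13 with the replicate block over numbers 1 to 4 (which lacks KO 5), and 0 and 2 for KO 2 to KO 5 against WT 1 to WT 4. In limma-voom on reads they were 0 and 2, and, chosen after seeing the data, 5 and 16 with the term, 2 and 15 without KO 1 and WT 1, and 1 and 2 with reads scaled to their totals. No filter gave 2 lower and the filter above 5 FPKM 0 lower, since Hspa1b does not pass it. Pseudocount 0.1, median-ratio and upper quartile scaling left both counts as they were. Leaving out each library in turn gave 0 to 1 higher and 0 to 2 lower, with 0 lower without any one WT library, where Hspa1b drops below the filter.

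No fit called a member with a sign opposite to that over all 9 libraries. Some members whose sign changed were called in other fits, namely Hspa9, Bag1, Ptges3 and Tcp1. Dnaja1 differed by 0.0016 without KO 1 and WT 1 and by 0.0013 in limma-voom without them, Dnajc7 by -0.0036 with the term and -0.0027 in limma-voom with it, and Bag1 by -0.083 and Ptges3 by -0.077 for KO 2 to KO 5 against WT 1 to WT 4. With each library left out, log2 differences ranged from -0.23 to 0.036 for Hspa4, -0.39 to 0.11 for Hsph1, -0.27 to 0.0040 for Hspa9, -0.26 to 0.17 for Dnaja1, -0.29 to 0.091 for Dnaja2, -0.43 to 0.17 for Dnajb1, -0.14 to 0.20 for Dnajc7, -0.083 to 0.33 for Bag1, -0.18 to 0.058 for Cdc37, -0.077 to 0.45 for Ptges3, -0.37 to 0.17 for Fkbp4 and -0.34 to 0.023 for Tcp1. The fit without WT 1 changed the sign for all of these but Bag1 and Ptges3, whose sign changed without KO 1, and that of Dnajc7 also changed without KO 2, KO 3 or KO 4. The cause was not tested. Other members moved by over 1.5 times in the same way, such as Cct7 (-0.58 without KO 1 and -0.12 without WT 1) and Stip1 (-0.44 and -0.067). Hspa1a, with 0 to 2 reads in each KO library, is limited by depth.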
